A study of Mus musculus with 10 samples.

Results

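The replication-dependent histone genes were followed in 10 RNA libraries of mouse embryonic fibroblasts (MEF) and mouse lung, with and without the curaxin CBL0137. Members were all genes whose symbol starts with Hist1h, Hist2h, Hist3h or Hist4h. The GENCODE vM21 annotation holds 70 of them, and 62 had a row among the 38293 gene identifiers of the count files. The other 8 (Hist1h2bh, Hist1h2bm, Hist1h3d, Hist1h3f, Hist1h3g, Hist1h3h, Hist1h3i and Hist2h2bb) were not analysed here. Of the 62, 49 belong to the Hist1 cluster on chromosome 13, 9 to Hist2 on chromosome 3, 3 to Hist3 on chromosome 11, and 1, Hist4h4, lies on chromosome 6. By product, 6 encode the linker histone H1, 20 H2A, 16 H2B, 7 H3 and 13 H4, a few of them annotated as pseudogenes.

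Chromatin is built from nucleosomes, in which DNA is wrapped around a core of H2A, H2B, H3 and H4 and sealed by the linker histone H1. Replication-dependent histone genes lie in clusters and are transcribed mostly in S phase, when new DNA must be packed. Their mRNAs lack introns and normally end in a conserved stem-loop in place of a poly(A) tail, and the stem-loop is bound by the protein SLBP. CBL0137 binds DNA, opens nucleosomes and traps the histone chaperone FACT on chromatin.

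Wild-type MEF, from C57BL/6J mice, were untreated (n = 2) or given 1 µM CBL0137 for 24 hr (n = 2). p53-/- MEF, homozygous for the Trp53tm1Tyj allele, were untreated (n = 1) or given the same dose for the same time (n = 1). Lungs came from NIH Swiss mice 7 weeks old that received the dextrose vehicle (n = 2) or 60 mg/kg CBL0137 (n = 2) intravenously 24 hr before collection, and the labels disagree on whether these mice were female or male. The study's methods call the 2 libraries of a condition biological replicates, while the labels name no separate cultures or animals, so p-values measure only the spread between these libraries. Tissue and strain cannot be told apart in comparisons of MEF with lung, since MEF and lung differ in both.

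RNA was depleted of ribosomal RNA rather than selected for poly(A), which keeps histone mRNAs without a tail, and the libraries were strand-specific. Counts are whole reads per gene as deposited, and only 0.789% to 1.16% of the reads of each file were on genes, from 16579 to 538717 per library. The shallowest was 1 vehicle lung library, in which a single count was worth 60.3 CPM (counts per 1000000 gene counts of the library). The 7202 annotated genes that share exon bases with a gene on the other strand held 69.8% of all gene counts, at 43.8 counts per kb of exon, against 6.99 counts per kb for the 29227 genes that do not. In a strand-specific library this is the pattern of reads counted on the strand opposite to each gene. The strand setting of the counting is not given in the sources used here, so a count on a member is treated as reads in its exons under the authors' strand setting, not as its mRNA level. The targeted gene could not be checked: Trp53 had 0 counts in all 4 wild-type MEF libraries, in both vehicle lungs and in untreated p53-/- MEF, 0 and 1 in the CBL0137 lungs and 5 in CBL0137-treated p53-/- MEF. The lung epithelium markers separated the tissues. All 8 summed to 409 to 784 CPM in lung, where 784 CPM was 13 counts, and at most 23.2 in MEF. The 10 fibroblast markers summed to 213 to 1016 CPM in MEF and 49.2 to 64.8 in the deeper lung libraries. The shallow vehicle lung, at 241 CPM from 4 counts, overlapped MEF.

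The members' counts did not follow that strand pattern. The 40 members with no exon of another gene on the other strand held 82.9% of member counts, at 27.7 counts per kb of exon, and the 22 members with such an exon had 19.4 counts per kb. Most member counts thus lay on genes with no annotated partner on the other strand, and whether these reads are antisense RNA or histone mRNA read on the wrong strand was not tested. Copies of histone genes are also nearly identical. In the median member 44.0% of 50-base stretches were unique to it, so the split of reads among close copies is uncertain.

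The stem-loops are shown because they define the family at the end of its mRNA. Within the annotated transcripts, 44 of the 70 members hold the 16-base stem-loop motif, including 40 of the 62 in the files. The 3 most frequent forms follow as DNA, 5′ to 3′, with the 6-base stem in capitals and the 4-base loop in lower case.
Most frequent form, 26 members: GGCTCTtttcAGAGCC
H4 form, 7 members: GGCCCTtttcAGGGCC
Form with A closing the loop, 6 members: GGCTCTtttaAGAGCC
The first form was in 10 H2A, 8 H2B, 5 H3 and 3 H1 genes, among them Hist1h1c, Hist1h1d, Hist1h1e and Hist2h3c2 described below. The second was in H4 genes only among the 44, and Hist4h4 carries it. In the annotated Hist4h4 transcript 2445 bases follow the stem-loop, against 377 in Hist2h3c2, 840 in Hist1h1c and 1153 in Hist1h1e. Hist1h2bl is annotated without the part that would hold a stem-loop.

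The promoters of the 5 members with the most counts are shown because 4 of them moved together in wild-type MEF and the other, Hist4h4, did not. Each is the 250 bases before the RefSeq start (GRCm38.p6), written on the gene's strand. Capitals mark 3 motifs on either strand, so reverse complements are also in capitals. CCAAT is a box of many histone promoters, the TATA box was searched as TATAAA, and a box of H1 promoters as AAACACA.
Hist1h2bl: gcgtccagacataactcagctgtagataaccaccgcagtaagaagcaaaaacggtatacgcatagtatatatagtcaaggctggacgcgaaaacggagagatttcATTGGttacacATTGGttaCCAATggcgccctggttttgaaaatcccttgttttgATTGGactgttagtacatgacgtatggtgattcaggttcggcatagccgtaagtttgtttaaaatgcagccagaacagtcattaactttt
Hist1h1e: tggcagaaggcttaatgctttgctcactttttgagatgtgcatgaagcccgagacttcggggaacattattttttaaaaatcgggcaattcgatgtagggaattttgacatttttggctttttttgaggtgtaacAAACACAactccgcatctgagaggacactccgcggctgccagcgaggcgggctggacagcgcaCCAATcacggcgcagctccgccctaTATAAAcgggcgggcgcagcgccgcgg
Hist1h1c: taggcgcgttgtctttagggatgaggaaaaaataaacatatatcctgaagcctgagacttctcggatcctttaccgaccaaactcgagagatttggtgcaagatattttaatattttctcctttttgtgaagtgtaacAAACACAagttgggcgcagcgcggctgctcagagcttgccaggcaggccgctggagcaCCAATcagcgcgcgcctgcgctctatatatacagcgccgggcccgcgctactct
Hist2h3c2: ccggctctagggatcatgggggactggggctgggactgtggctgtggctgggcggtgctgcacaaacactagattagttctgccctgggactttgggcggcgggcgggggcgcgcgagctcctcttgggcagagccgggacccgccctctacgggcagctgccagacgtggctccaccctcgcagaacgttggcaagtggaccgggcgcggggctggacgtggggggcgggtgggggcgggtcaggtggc
Hist4h4: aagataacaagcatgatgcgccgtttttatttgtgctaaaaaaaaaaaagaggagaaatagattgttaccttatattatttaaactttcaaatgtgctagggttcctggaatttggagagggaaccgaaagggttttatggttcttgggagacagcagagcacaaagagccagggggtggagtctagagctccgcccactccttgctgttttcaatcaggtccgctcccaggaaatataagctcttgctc
The windows lie at chr13:21716184-21716433 (minus strand), chr13:23622559-23622808 (minus), chr13:23738557-23738806 (plus), chr3:96239128-96239377 (minus) and chr6:136804432-136804681 (minus). Among members with a RefSeq promoter (62 of the 70), CCAAT was in 51 (82.3%), against 33.9% of all 32851 promoters in windows of the same length. TATAAA was in 29 (46.8%) against 12.4%, and AAACACA in 9 (14.5%) against 6.25%, with 5 of the 6 H1 genes among them. Both Hist1h1e and Hist1h1c carry AAACACA followed by CCAAT, and Hist1h2bl carries CCAAT or its reverse 4 times in the space it shares with Hist1h2ai, which starts 279 bases away on the other strand. None of the 3 motifs was in the windows of Hist2h3c2 and Hist4h4.

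Counts on the family were few and concentrated. Over the 10 libraries the 62 members had 1574 counts, 57 had at least 1 count and 29 had 10 or more. Hist1h1c, Hist1h1e and Hist1h2bl together held 41.9% of them, and the 25 members with the most counts held 89.4%. Per length, Hist1h2bl stood highest at 556 counts per kb of exon, against a median of 11.2 counts per kb over the members. Of its 50-base stretches 17.2% were unique to it, against 36.5% for Hist2h3c2, 68.0% for Hist1h1e and 91.5% for Hist1h1c. Which close copy the reads on Hist1h2bl came from is thus uncertain. The remaining 37 members had 0 to 13 counts each, 167 in all.

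**Figure D1:**
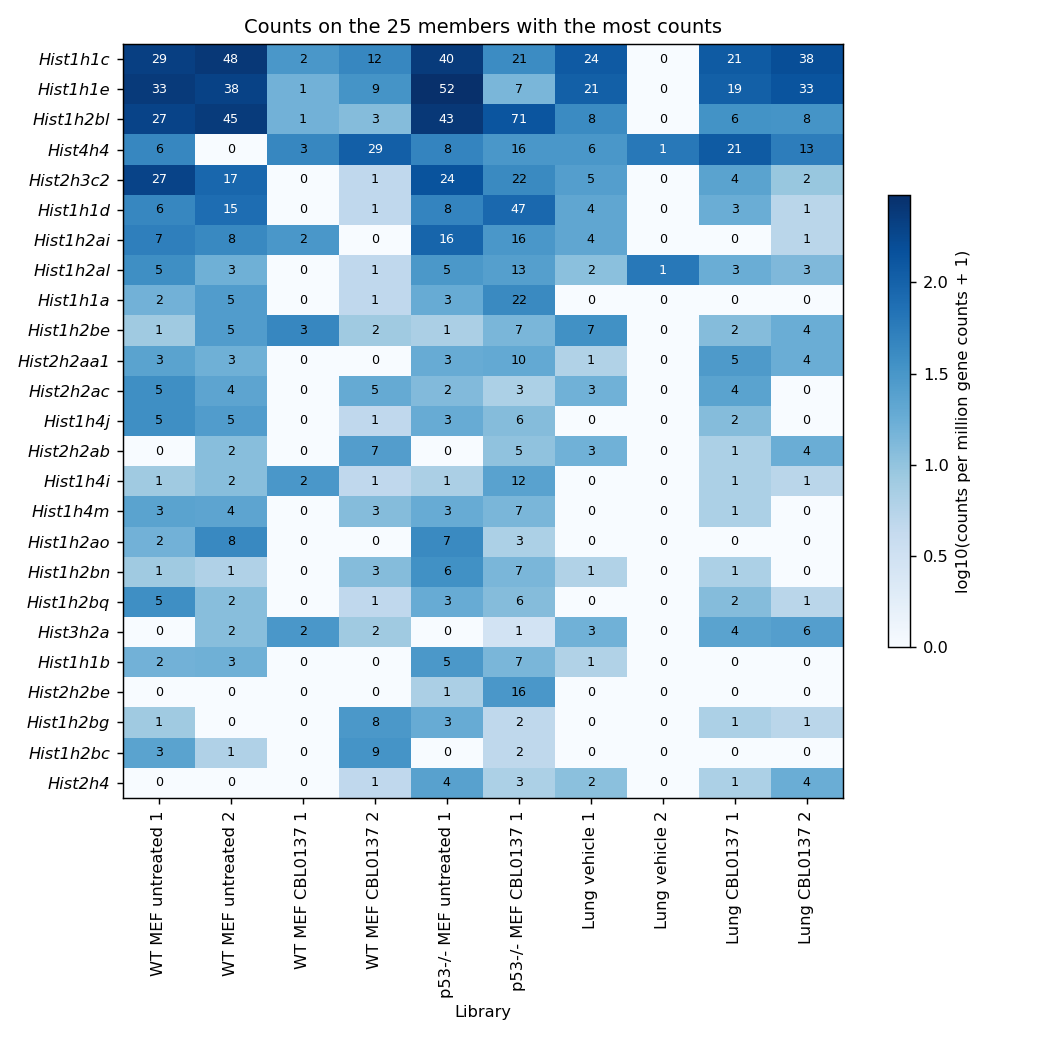
Counts in each of the 10 libraries (columns) on the 25 histone cluster genes with the most counts (rows). Numbers are counts as deposited, and the colour gives log10 of CPM plus 1. In wild-type MEF the dark cells of the top rows are in the 2 untreated libraries, with the exception of Hist4h4.

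In wild-type MEF the summed counts of the histone cluster genes were lower after CBL0137. The 62 members made up 0.135% and 0.130% of gene counts without treatment (185 and 250 counts) and 0.0281% and 0.0416% after CBL0137 (19 and 114 counts). The means were 0.133% ± 0.0033 (SD, n = 2) and 0.0348% ± 0.0095 (SD, n = 2), a 3.81-fold lower share (log2 ratio -1.93). Both treated libraries lay below both untreated ones, and the exact 95% binomial intervals did not overlap between the groups either (0.115% to 0.156% against 0.0169% to 0.0499%). These intervals cover counting error only. No p is given for the sum, and 2 libraries against 2 cannot give an exact two-sided permutation p below 0.33.

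**Figure D2:**
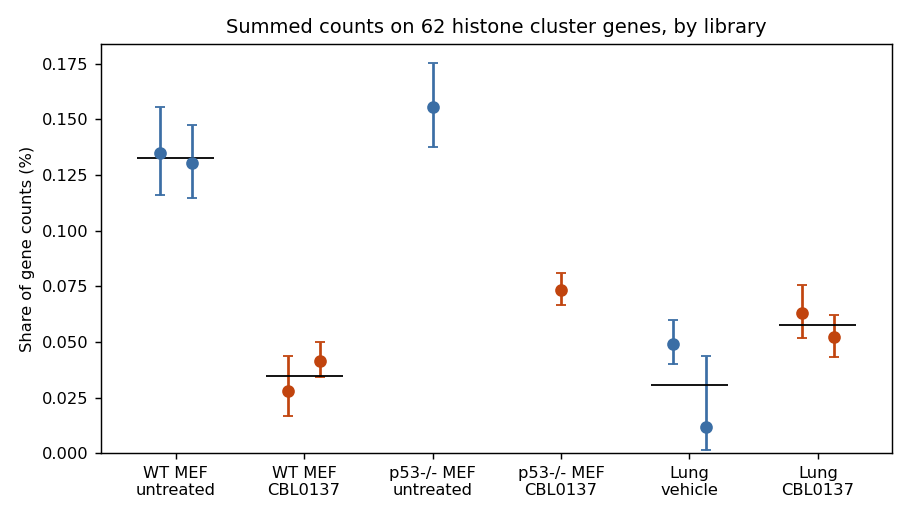
Summed counts on the 62 histone cluster genes as a share of gene counts (%), 1 point per library, with exact 95% binomial intervals; horizontal lines are means of 2 libraries, blue is untreated or vehicle and red is CBL0137. The treated wild-type MEF libraries sit at 0.0281% and 0.0416%, below the untreated ones at 0.135% and 0.130%, while in lung the 2 groups lie close together beside 1 shallow vehicle library with a wide interval.

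The summed shares of the 5 histone types did not move alike in wild-type MEF. H1 genes, the linker histones, held 0.0525% and 0.0568% of gene counts without CBL0137 and 0.00444% and 0.00911% with it. This was an 8.06-fold lower mean share (log2 ratio -3.01). H2B genes held 0.0277% and 0.0323% against 0.00592% and 0.0106%, 3.64-fold lower. H2A genes held 0.0197% and 0.0188% against 0.0074% and 0.00729%, 2.62-fold lower. H3 genes had 30 and 24 counts untreated against 0 and 3 treated. In these 4 types both treated libraries were below both untreated libraries. Single genes carried much of this. Hist1h2bl held 27 of 38 and 45 of 62 untreated H2B counts, and 1 of 4 and 3 of 29 treated ones. Without it the H2B groups overlapped. Hist2h3c2 held 27 of 30 and 17 of 24 untreated H3 counts. H4 genes held 0.0131% and 0.0099% against 0.0104% and 0.0135%, and here the groups overlapped (log2 ratio 0.05). The differences between types were not tested.

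Within H4 the counts shifted between genes. Hist4h4 had 6 and 0 counts untreated against 3 and 29 treated, which is 43.7 and 0 against 44.4 and 106 CPM. Hist1h4j had 5 and 5 against 0 and 1, and Hist1h4m 3 and 4 against 0 and 3. Hist1h4i had 1 and 2 against 2 and 1. The H4 sum thus held more counts on Hist4h4 and fewer on Hist1h4j after CBL0137. Hist4h4 held 6 of 18 and 0 of 19 untreated H4 counts, and 3 of 7 and 29 of 37 treated ones. The overlap of the H4 groups rested on this gene: without it both treated libraries were below both untreated ones for H4 too. The H4 genes were too low for the test in wild-type MEF.

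**Figure D3:**
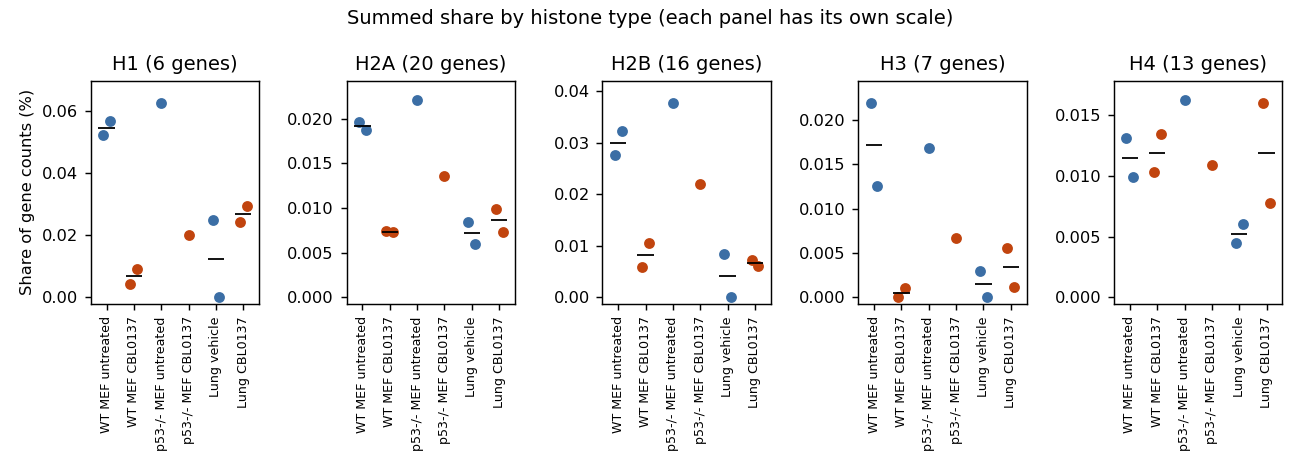
Share of gene counts (%) on the members of each histone type, 1 point per library and a line for the mean of 2 libraries, with a separate linear scale in each panel; blue is untreated or vehicle, red is CBL0137. In wild-type MEF the red points lie below the blue ones for H1, H2A, H2B and H3, and among them for H4.

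By cluster, the Hist1 genes held 0.104% and 0.114% of gene counts in wild-type MEF without CBL0137 and 0.0207% and 0.0244% with it, 4.82-fold lower. Hist1 lies in separate blocks on chromosome 13. The block that holds Hist1h2bl and Hist1h1b (21 genes) went from 0.0394% and 0.0432% to 0.0118% and 0.00547%. The block that holds Hist1h1c and Hist1h1e (27 genes) went from 0.0605% and 0.0693% to 0.00888% and 0.0186%. Both blocks were lower in both treated libraries, but the 2 treated libraries differed in opposite ways, and the blocks were not compared by a test. Hist2 genes had 37 and 29 counts against 0 and 16. Hist3 genes, of which Hist3h2a alone had counts in MEF, had 0 and 2 against 2 and 2.

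Of the 62 members 4 passed the filter on low counts of the edgeR quasi-likelihood test in wild-type MEF, and all passed through their counts in the untreated libraries, so their number carries no weight. Each of the 4 fell past the threshold of adjusted p 0.05 (Benjamini-Hochberg over 1757 genes), where 4.27% of all genes tested were called lower. Hist1h2bl, an H2B gene at chr13:21715763-21716143 in the annotation, had 27 and 45 counts without CBL0137 and 1 and 3 with it. This was 216 CPM ± 26.5 (SD, n = 2) against 12.9 CPM ± 2.73 (SD, n = 2). Its fitted log2 fold change was -4.20 (SE 0.47, edgeR adjusted p = 0.0091).

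The other 3 were a pair of linker histone genes and an H3 gene. Hist1h1e had 33 and 38 counts against 1 and 9, or 219 ± 30.2 against 23.8 ± 12.7 CPM (SD, n = 2 each). Its log2 fold change was -3.00 (SE 0.43, edgeR adjusted p = 0.0198). It shares exon bases with Hist1h2be on the same strand, so reads in that stretch are uncertain. Hist1h1c had 29 and 48 counts against 2 and 12, or 231 ± 27.3 against 36.7 ± 10.0 CPM, with a log2 fold change of -2.60 (SE 0.39, edgeR adjusted p = 0.0221). Hist2h3c2 had 27 and 17 counts against 0 and 1, and its fitted log2 fold change of -5.33 (SE 0.91, edgeR adjusted p = 0.0273) rests on that single treated count. In all 4 genes the treated libraries were below both untreated ones. On the other strand Gm20628 covers all 488 exon bases of the member Hist2h3b and all 381 of Hist2h2bb, which has no row. In both members 0% of 50-base stretches were unique. Gm20628 was also called lower. Its log2 fold change was -3.73 (SE 0.16, edgeR adjusted p = 0.001). Genes opposite the other members are not described here.

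**Figure D4:**
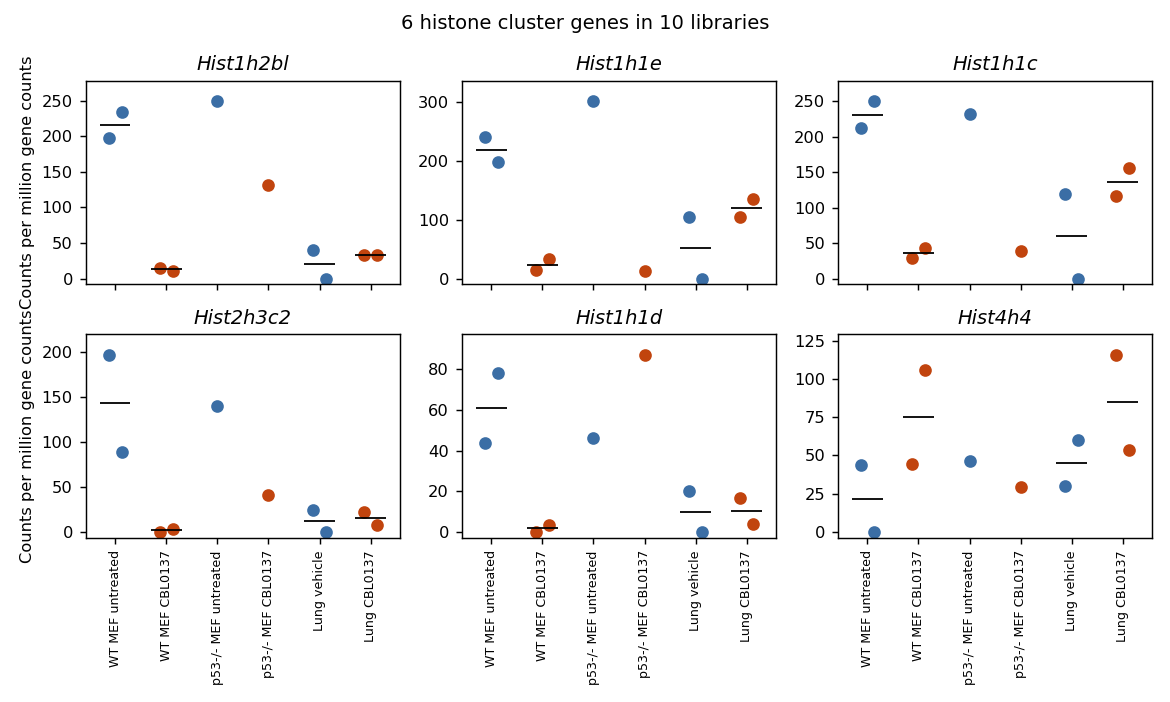
CPM in each library (points) for the 4 members called lower in wild-type MEF, and for Hist1h1d and Hist4h4; lines are means of 2 libraries, blue is untreated or vehicle and red is CBL0137, and each panel has its own linear scale. The red wild-type MEF points of Hist1h2bl, Hist1h1e, Hist1h1c, Hist2h3c2 and Hist1h1d lie below the blue ones, and those of Hist4h4 do not.

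These calls rest on both untreated libraries, and that of Hist2h3c2 also on treated replicate 2, without which its adjusted p was 0.0883 and 3 members were called. Without untreated replicate 1 or untreated replicate 2 no member was called (adjusted p = 0.14 to 0.313 for the 4 genes), when 2 and 0 genes of the whole table were called, although the fold changes stayed between -5.84 and -2.49. Hist1h1d (H1; 6 and 15 counts against 0 and 1), was called with no filter on low counts (log2 fold change -4.09, SE 1.13, edgeR adjusted p = 0.0245) and when all 10 libraries were fitted together (-4.25, SE 1.15, adjusted p = 0.0316). With no filter 46 members were tested, and 31 of them (67.4%) had a negative fold change, against 48.5% of 13583 genes.

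Members with 10 or more counts in the 4 wild-type libraries were also compared library by library. Several reached that total only through the untreated libraries, so their number carries no weight either. Both treated libraries lay below both untreated ones in 10 of 13, when 20.7% of 4359 genes with such counts did. The 10 were Hist1h1c, Hist1h1d, Hist1h1e, Hist1h2ai, Hist1h2ao, Hist1h2bl, Hist1h4j, Hist1h4m, Hist2h2ac and Hist2h3c2. Hist1h2ao, an H2A gene, had 2 and 8 counts against 0 and 0. Hist1h2ai, the H2A neighbour of Hist1h2bl, had 7 and 8 against 2 and 0. Hist2h2ac had 5 and 4 against 0 and 5. Of the other 3, Hist1h2bc (3 and 1 against 0 and 9) and Hist1h2be (1 and 5 against 3 and 2) overlapped, and Hist4h4 was higher in CPM in both treated libraries, by little in treated replicate 1. Outside the 4 called genes the share was lower too. The other 58 members together held 0.0503% and 0.0531% of gene counts without CBL0137 and 0.0222% and 0.0324% with it, 1.89-fold lower. Since the 4 genes left out are those called lower in these libraries, this is a description.

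Other values moved with the members in these libraries. The fibroblast markers also stood lower: all 10 summed to 591 and 1016 CPM before and 385 and 248 after treatment, with 6 and 6 against 5 and 7 of them detected. Col3a1, a collagen gene, was the 1 marker called lower of 5 tested (log2 fold change -2.58, SE 0.56, edgeR adjusted p = 0.0491). The treated libraries were both the shallowest and the deepest of the 4, at 67587 and 274300 gene counts. Counts on genes without an exon on the other strand were 19.3% and 20.7% of gene counts in the untreated and 24.2% and 24.3% in the treated libraries. The part of these in the result was not tested. Taken against the counts of such genes alone, the summed share had a log2 ratio of -2.21.

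Few other genes of the histone pathway had enough counts to be tested in wild-type MEF. Of the 11 replication-independent histone genes listed, 2 passed the filter and H1f0, the linker histone of resting cells, was called lower, with 10 and 20 counts against 1 and 0 (log2 fold change -4.67, SE 1.00, edgeR adjusted p = 0.0485). None of the 3 histone chaperone genes tested (of 18 listed) and none of the 4 S-phase genes tested (of 24) was called, with median log2 fold changes of 0.28 and 0.78. None of the 14 genes of histone mRNA processing listed reached the filter. The S-phase genes summed to 1145 and 974 CPM before and 1228 and 1947 after treatment. Only 10 and 12 of the 24 had a count before and 7 and 13 after. The 4 tested genes held most of these counts in each library, and some others of the list had fewer after treatment. Like those of the members, these counts are reads under the authors' strand setting, not mRNA levels. A call missed at these counts does not show that a gene was unchanged.

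In p53-/- MEF, with 1 library per treatment and so no replicate check, the summed share was also lower after CBL0137. It was 0.155% in the untreated library (268 counts, exact 95% interval 0.137% to 0.175%) and 0.0735% in the treated library (396 counts, 0.0664% to 0.0811%), a 2.11-fold lower share (log2 ratio -1.08, counting interval -1.31 to -0.85). All 5 types were lower, by 3.10-fold for H1, 2.52-fold for H3, 1.71-fold for H2B, 1.63-fold for H2A and 1.48-fold for H4. The counting intervals overlapped for H2A (0.0156% to 0.0303% against 0.0106% to 0.017%) and H4 (0.0108% to 0.0235% against 0.00834% to 0.0141%). Hist1h1c and Hist1h1e held 40 and 52 of the 108 untreated H1 counts, and 21 and 7 of the 109 treated ones. The other H1 genes together had a higher share in the treated library. Counting all reads of the file in place of gene counts gave a log2 ratio of -0.67, and leaving out members that share exon bases with another gene gave -0.83.

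Single members differed in p53-/- MEF. Of 16 with 10 or more counts in the 2 libraries, 7 were at least 2-fold lower in the treated one, as were 13.3% of 4980 genes with such counts. Hist1h1e went from 52 counts to 7 in a deeper library, 302 against 13.0 CPM. Its treated to untreated ratio was 0.0431 (exact 95% interval 0.0165 to 0.0952). Hist1h1c went from 232 to 39.0 CPM, a ratio of 0.168 (0.0941 to 0.292). Hist2h3c2 (24 and 22 counts) had a ratio of 0.293 (0.157 to 0.546). Hist1h2ao and Hist1h2ai had ratios of 0.137 (0.0229 to 0.601) and 0.32 (0.15 to 0.684). For Hist1h2bn (0.373, 0.107 to 1.34) and Hist1h1b (0.448, 0.122 to 1.79), also among the 7, the interval included 1. Hist1h2bl, not among the 7, had 43 and 71 counts, a ratio of 0.528 (0.357 to 0.791).

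Some members stood higher in CPM in treated p53-/- MEF. Hist1h1d had 8 and 47 counts, 46.4 and 87.2 CPM, a ratio of 1.88 (0.88 to 4.61). Hist1h1a, another H1 gene, had 3 and 22 counts (ratio 2.35, 0.705 to 12.2). Hist2h2be, an H2B gene with 0 counts in every wild-type MEF and lung library, had 1 and 16 (ratio 5.12, 0.795 to 215), and Hist1h4i 1 and 12. The interval included 1 in each of these, as it did for Hist4h4, which had 8 and 16 counts and a lower CPM, a ratio of 0.64 (0.258 to 1.73). Outside the 4 genes called in wild-type MEF, the other 58 members held 0.0632% of gene counts untreated and 0.051% treated.

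The effect in p53-/- MEF was compared with that in wild-type MEF by the interaction term, with 1 library in each p53-/- arm, assumed to vary like the wild-type pairs that supply the spread. Of 7 members tested none was called, as 0.1% of 2995 genes were. Hist1h2bl had an interaction of 3.31 on the log2 scale (SE 0.71, edgeR adjusted p = 0.132) and Hist1h1d one of 5.19 (SE 1.26, adjusted p = 0.201), both in the direction of less decrease in p53-/- MEF. Hist1h1e had -1.47 (SE 0.78, adjusted p = 0.534) and Hist1h1c 0.06 (SE 0.69, adjusted p = 0.996), and the latter changed sign with the scaling. Unadjusted p was under 0.05 for 3 of the 7 and for 309 of the 2995 genes, and DESeq2 called no member either. Hist1h2bl and Hist2h3c2, among these 3, were called lower in the same wild-type libraries, so their number carries no weight. When treated wild-type replicate 1, the shallower library, was left out, Hist1h2bl was called (3.42, adjusted p = 0.0226), with 136 genes called in all.

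In lung the members were fewer than in untreated MEF and were not lower after CBL0137. The summed share was 0.0493% and 0.0121% in the vehicle libraries (99 and 2 counts) and 0.063% and 0.0521% in the CBL0137 libraries (114 and 127 counts). Means were 0.0307% ± 0.0263 and 0.0575% ± 0.0077 (SD, n = 2 each), a log2 ratio of 0.91. Both treated libraries were above both vehicle libraries, but the interval of the deeper vehicle library (0.0401% to 0.06%) overlapped those of both treated libraries (0.0519% to 0.0756% and 0.0434% to 0.062%). Without the shallow vehicle library the log2 ratio was 0.22, and without the deeper one 2.25, so the size of the difference was not detectable at this depth.

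The same H1 genes led in lung. Hist1h1c had 24 and 0 counts with vehicle and 21 and 38 with CBL0137, and Hist1h1e 21 and 0 against 19 and 33. In the deeper vehicle library Hist1h1c and Hist1h1e were at 120 and 105 CPM, beside 116 and 156 and beside 105 and 135 in the treated libraries. Hist1h2bl, the highest per length over all libraries, had 8 and 0 against 6 and 8. Hist4h4 had 6 and 1 against 21 and 13, or 29.9 and 60.3 against 116 and 53.3 CPM, and the groups overlapped.

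No member was called in lung by edgeR, nor was any gene (0% of 2377 tested), and 74 genes had an unadjusted p under 0.05. The 3 members tested were Hist4h4 (log2 fold change 1.42, SE 0.82), Hist1h1c (0.56, SE 0.61) and Hist1h1e (0.56, SE 0.63), each with an adjusted p of 1.00. DESeq2 called no member either. Of 8 members with 10 or more counts in lung, Hist1h1e, Hist2h2aa1 and Hist3h2a were higher in both treated than in both vehicle libraries, and 18.3% of 4861 genes were. Hist2h2aa1 and Hist3h2a reached 10 counts only through the treated libraries, so the number of members carries no weight. Hist2h2aa1 had 1 and 0 counts against 5 and 4, and Hist3h2a 3 and 0 against 4 and 6. In all 3 genes the shallow vehicle library had 0 counts and could show no level between 0 and 60.3 CPM. For Hist1h1e the deeper vehicle library (104.6 CPM) and treated replicate 1 (104.9 CPM) were nearly equal.

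The treatment effects of lung and wild-type MEF were compared by their interaction. None of the 5 members tested was called, as 0.276% of 2899 genes were. Unadjusted p was under 0.05 for 4 of the 5 and for 234 of the 2899. These 4 are the genes called lower in the same wild-type MEF libraries, so their number carries no weight. The differences, lung minus wild-type MEF on the log2 scale, were 4.15 for Hist1h2bl (SE 0.96, edgeR adjusted p = 0.154), 3.52 for Hist1h1e (SE 0.83, adjusted p = 0.178), 3.13 for Hist1h1c (SE 0.81, adjusted p = 0.251) and 4.80 for Hist2h3c2 (SE 1.56, adjusted p = 0.328). For Hist4h4 the difference was -0.68 (SE 1.40, adjusted p = 0.987), with a sign that changed when 1 library was left out.

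The untreated groups can be set side by side. Untreated wild-type and p53-/- MEF had summed shares of 0.133% and 0.155%, with overlapping counting intervals, and vehicle lung stood at 0.0493% in its deeper library. After CBL0137 the order was p53-/- MEF at 0.0735%, lung at 0.0575% and wild-type MEF at 0.0348%. Treated wild-type MEF replicate 2 (0.0416%, 0.0343% to 0.0499%) and lung (0.0521%, 0.0434% to 0.062%) had overlapping intervals, as had the other treated lung library (0.0519% to 0.0756%) and treated p53-/- MEF (0.0664% to 0.0811%). These overlaps are of single library pairs. Both treated wild-type MEF libraries (0.0281% and 0.0416%) lay below both treated lungs (0.063% and 0.0521%). The order was not tested. H1 genes held the most member counts of the 5 types in both untreated wild-type MEF libraries (72 and 109), in untreated p53-/- MEF (108), in the deeper vehicle lung (50) and in both treated lungs (44 and 72). In treated wild-type MEF H4 genes held the most (7 and 37, of which 3 and 29 were on Hist4h4). In treated p53-/- MEF H2B genes did (119, beside 109 for H1).

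The lower members among the 25 are given by their counts. In wild-type MEF Hist1h2al, annotated as a pseudogene, had 5 and 3 untreated and 0 and 1 treated counts. Hist1h1a had 2 and 5 against 0 and 1, and Hist1h1b, also H1, 2 and 3 against 0 and 0. Hist1h2bq had 5 and 2 against 0 and 1, Hist1h2bn 1 and 1 against 0 and 3, and Hist2h2aa1 3 and 3 against 0 and 0. These are small numbers, and in each treated replicate 1 had no count. In the other direction stood Hist1h2bg (1 and 0 against 0 and 8), Hist2h2ab (0 and 2 against 0 and 7) and Hist2h4 (0 and 0 against 0 and 1), with the higher value in treated replicate 2, the deepest wild-type library. Hist3h2a had 0 and 2 against 2 and 2.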

How the data were processed

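The authors deposited counts, whole numbers of reads per gene without normalization, in 1 file per library. The submitters' processing notes name TopHat2 2.0.9 and HTSeq, and the study's methods give GRCm38.p5 as the assembly and Strand NGS as the tool for genes; the annotation release and the strand setting are not given in the sources used here. Rows that name no gene (98.8% to 99.2% of reads on no gene, at most 0.00468% ambiguous) were left out of library sizes and tests, and no read was listed as mapping to more than 1 place. Gene positions, exons on either strand, stem-loops and 50-base uniqueness came from GENCODE vM21, which holds 95.1% of the identifiers; promoters came from RefSeq (GRCm38.p6).

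Library totals were 16579 to 538717 gene counts, at which 3 counts, the floor for a count of 0, are 5.57 to 181 CPM. Shares are member counts over all gene counts, with exact (Clopper-Pearson) 95% intervals. The test of genes was the quasi-likelihood test of edgeR 4.0.16 (R 4.3.3), run first on simulated data. Scaling was TMM, low genes were removed by filterByExpr (at least 10 counts per library scaled to depth and 15 in all), and p-values were adjusted by Benjamini-Hochberg over all genes kept, with a threshold of 0.05. Values for p53-/- MEF alone have no test. Alternatives were DESeq2 1.42.0, upper quartile scaling, gene counts as library size, no filter, all 10 libraries in 1 fit, each replicate left out, and other denominators of the summed share; the denominator of genes without an exon on the other strand was chosen after seeing the data. Tables used Python 3.11.15, pandas 2.3.3, SciPy 1.17.1 and bedtools 2.31.1.

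Replicate numbers follow accession order and pair nothing. Replicates differed by more than sampling noise (chi-square per degree of freedom of 1.31 to 10.1). The members and lists were chosen with earlier results of these data known. Values in every library are plotted for the 25 members with the most counts, and the text names these and members past a threshold. Genes of the lists are named only where called, with Trp53 in every library. Gm20628 and Hist2h3b were named later, as a called gene and a member opposite it.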

Additional observations from a re-analysis of the deposited data

Results flagged for a closer look

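Against controls of the same cells or tissue, the summed share of the histone cluster genes was lower in every treated MEF library. It was higher in every treated lung library. In lung, however, the counting interval of the deeper vehicle library (0.0493%) overlapped those of both treated libraries (0.063% and 0.0521%). The log2 ratio of shares was 2.83 higher in lung than in wild-type MEF and 1.99 higher than in p53-/- MEF. For the Hist1 cluster alone these differences were 3.08 and 1.95, and for H4 genes the difference of lung from p53-/- MEF was 1.75. The differences of the sums were not tested, p53-/- MEF has 1 library per treatment, and the difference in lung depends in size on a vehicle library with 2 member counts: without it the log2 ratio in lung was 0.22.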

How the results depend on the processing

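The summed share was lower in treated wild-type MEF under every alternative run, with log2 ratios of -2.24 to -1.67 when each replicate was left out. It was higher in treated lung under every alternative run, by 0.22 to 2.25 with each replicate left out. In p53-/- MEF it stayed lower, but moved to -0.67 with all reads as denominator, -0.83 without members that share exon bases with another gene, and -1.67 with genes without an exon on the other strand as denominator. The number of members called in wild-type MEF was 4 or 5 with DESeq2, other scalings, no filter or all 10 libraries in 1 fit, and 0 to 4 with each replicate left out; it was 0 without either untreated replicate. DESeq2 called 57 genes of the whole table there, against 149 with edgeR, and no filter gave 200 and the replicates left out 0 to 254. No member was called in lung under the alternatives run, or for the tissue interaction under those with an adjusted p (DESeq2 gave none for the 5 members tested), and 0 to 1 for the genotype interaction with a replicate left out. Interactions that changed sign were those of Hist1h1c with genotype (-0.036 with gene counts as library size, -0.12 to 0.58 with a replicate left out), of Hist1h2ai with genotype (-0.82 to 5.02) and of Hist4h4 with tissue (-5.38 to 0.55); the cause was not tested. No paired analysis was possible because the labels give no replicate numbers. With 2 to 396 member counts per library, most members were too low to test.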
